A study of Homo sapiens with 6 samples.

Results

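NFE2L2 (NRF2), its partners and inhibitors, and the antioxidant, glutathione, thioredoxin, pentose phosphate, aldo-keto reductase and iron genes grouped with it formed a list of 41 genes. They were chosen by gene name, and all 41 were found among the 31368 genes of the deposited FPKM table. The RNA came from CAL27, an established human line grown from a tongue squamous cell carcinoma, so every value describes 1 tumour's cells in culture. In the lactate group, 3 libraries were made from CAL27 cells given 10 mM lactate for 24 h. In the untreated group, 3 libraries were made from CAL27 cells with no treatment. The labels do not name a vehicle, the form of lactate or its pH, and they do not state that the numbered libraries were independent cultures, so the tests speak only of the spread among these libraries, which may be technical.

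NRF2 is a transcription factor that KEAP1 holds in the cytoplasm and presents to a CUL3 ubiquitin ligase for destruction. Oxidants and electrophiles modify cysteines of KEAP1, NRF2 then accumulates, pairs with a small MAF protein such as MAFG and binds antioxidant response elements near its target genes, sites at which BACH1 competes as a repressor. The control acts largely on the NRF2 protein, which RNA-seq does not measure. The targets supply glutathione, reduced thioredoxin, NADPH and ferritin, and activating lesions of this pathway are known in squamous cancers.

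The deposited unit was FPKM, a fragment count scaled to the gene's length and to 1 denominator per library. The library denominators recovered from the steps between low values were 30957477, 32888733 and 40220226 reads in lactate replicates 1 to 3 and 28287543, 25163374 and 33297625 reads in untreated replicates 1 to 3. The whole reads recovered came to 96.2% to 97.3% of the denominators in lactate and 101.1% to 102.3% in untreated libraries. The denominators were therefore not the libraries' read totals, and a scaling between libraries before deposit, of which the labels say nothing, is possible. Every difference in FPKM is relative to that scaling, and scaling to read totals moved the median of all genes by 0.061 on the log2 scale. A level of 1 FPKM in a gene of 2 kb rested on 50.3 to 80.4 reads. The 9 squamous epithelial markers had values in all libraries, from 1.89 FPKM (KRT14) to 610 FPKM (SFN). Of 11 markers of immune, endothelial and fibroblast cells, 10 had values, and none exceeded the 1.34 FPKM of CDH5. Markers differed between the groups. Of the 9 squamous markers 6 rose, among them KRT17 (a mean 25.6% higher), and 2 fell, KRT5 (a mean difference of -23.7%) and KRT6A. The 4 fibroblast markers, all under the filter, summed to 1.59 to 1.79 FPKM in lactate and 1.04 to 1.19 FPKM in untreated libraries. Of those 4, COL1A2, PDGFRB and LUM did not overlap between groups and COL1A1 did. The 3 immune markers with values summed to 0.350 to 0.655 FPKM in lactate and 0.713 to 0.959 FPKM in untreated libraries, and the 3 endothelial markers to 1.03 to 1.13 FPKM and 1.13 to 1.41 FPKM in those groups. Their part in the results was not tested.

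In lactate, the mRNAs for NRF2 itself, catalase, thioredoxin reductase and the aldo-keto reductase AKR1C3 were higher, and those for KEAP1, NQO1, glutathione peroxidase GPX1 and all 3 pentose phosphate enzymes in the list were lower. The subunits of the enzyme that commits cysteine to glutathione, GCLC and GCLM, and the heme oxygenase HMOX1 did not pass the test. All changes were modest, and the largest, in CAT, was a difference of 0.40 on the log2(FPKM + 1) scale. Of the 41 genes, 38 passed the filter of at least 1 FPKM in at least 3 libraries, and MGST1, AKR1B10 and ABCC2 did not.

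Of the 38 tested, 7 rose and 21 fell at a limma adjusted p under 0.05 over all genes tested (18.4% and 55.3%). Among all 11792 genes tested, 27.7% rose and 30.9% fell, 58.6% in all. The median log2 fold change was -0.083 over the 38 and -0.016 over all genes tested. The groups' values did not overlap in 29 of the 38 (76.3%), against 65.5% of all genes tested. A called change of at least 0.2 on the log2(FPKM + 1) scale was found in 16 of the 38 (42.1%), against 35.4% of all genes tested. That scale understates changes of low genes, so these shares are not strictly comparable. The members were more abundant than most genes, with a median level of 27.6 FPKM against 5.67 FPKM over all genes tested. Among the 501 genes of at least 100 FPKM, 46 rose and 390 fell (median -0.21), and among the 12 members at that level 1 rose and 10 fell. The split of 7 risen and 21 fallen became 9 and 9 after quantile normalization and 11 and 16 with libraries scaled to their read totals. It became 10 and 14 when a spline on base composition and gene length was subtracted from every library (the GC and length correction). The first and last of these moved the genes of at least 100 FPKM by 0.18 and 0.12 on the log2 scale.

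**Figure D1:**
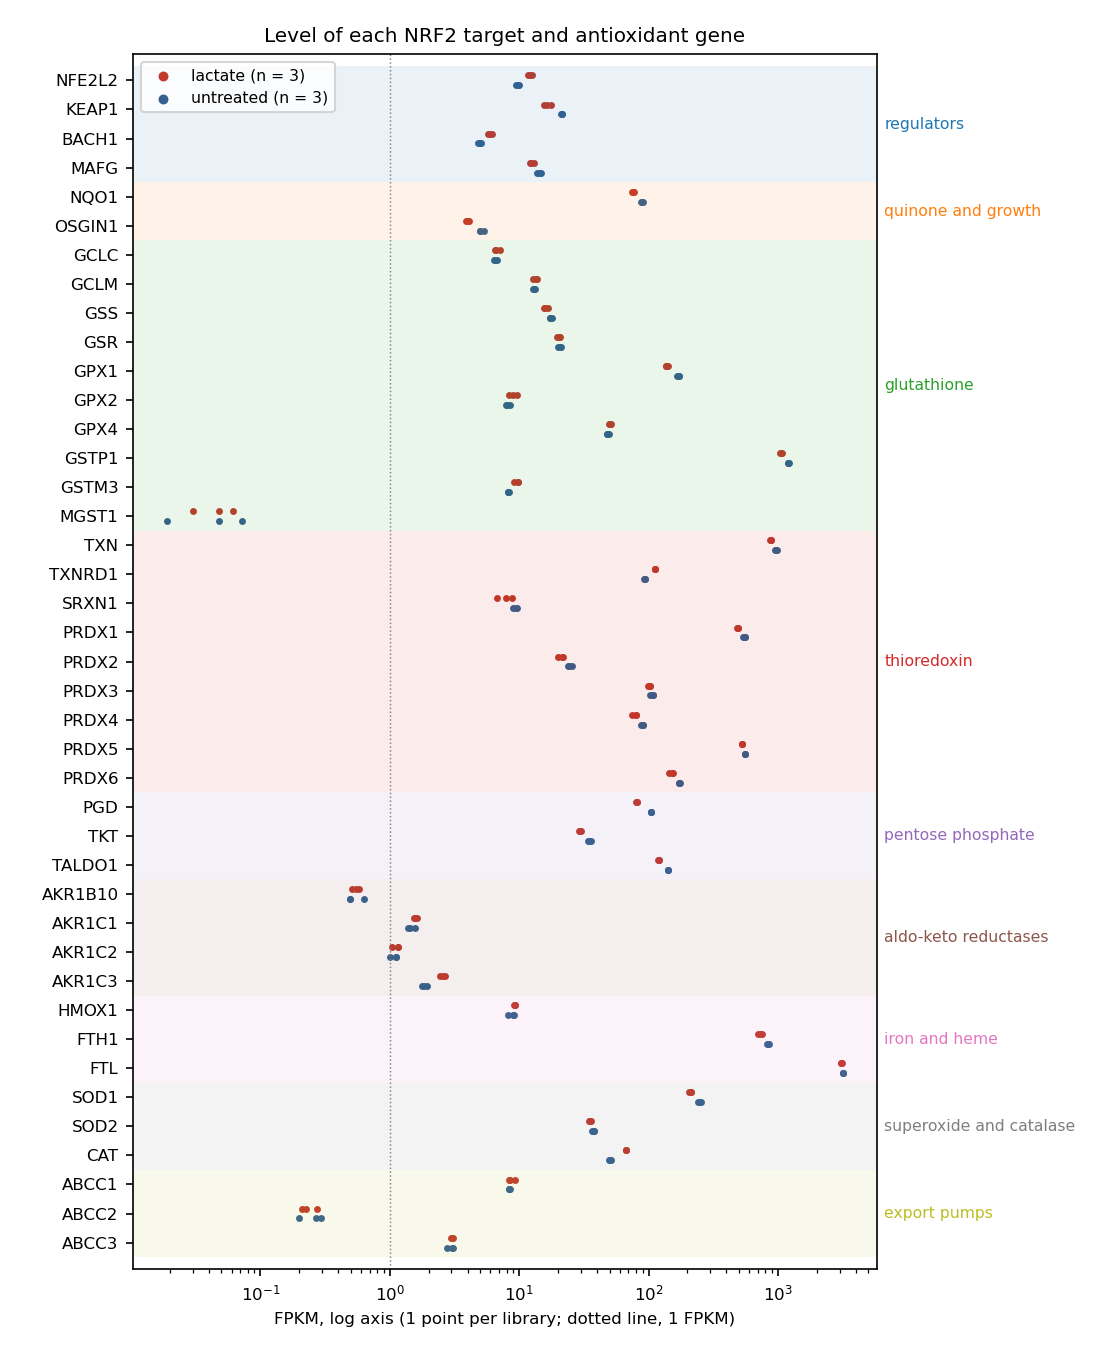
FPKM of the 41 genes in each library on a log axis, with lactate points above untreated points in each row and shading by class. The levels run from 0.019 FPKM in MGST1 to 3189 FPKM in FTL, and 3 genes lie under 1 FPKM in every library.

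FPKM is scaled to a gene length, which can exceed that of the transcript, so the order of levels between genes is approximate. For TKT that length was 9502 nt and its longest coding transcript 3010 nt, and for TXN 1010 nt and 869 nt. FTL, the ferritin light chain, was the most abundant at 3136 FPKM on average over the 6 libraries, followed by GSTP1 at 1129, TXN at 923 and FTH1 at 782 FPKM. The values of these 4 genes did not overlap with those of the next in order. Of the 40 neighbouring pairs in the order of mean levels, 18 overlapped over the 6 libraries, among them PRDX5 and PRDX1, and HMOX1 and GSTM3. Together the 41 genes held 1.99% to 2.07% of the summed FPKM of a library, with sums of 8201 ± 53.2 FPKM in lactate and 8868 ± 10.4 FPKM in untreated cells (SD, n = 3 each). The iron and heme genes, nearly all of it ferritin, summed to 3828 ± 45.0 FPKM in lactate and 4026 ± 10.1 FPKM in untreated cells.

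The regulators moved in both directions. NFE2L2 (ENSG00000116044, chromosome 2, 177227595 to 177392697 in GRCh38, minus strand) had 12.6, 12.1 and 11.8 FPKM in lactate replicates 1 to 3, against 9.54, 9.76 and 10.0 FPKM in untreated replicates 1 to 3. Every lactate library lay above every untreated one. The difference was 0.29 on the log2(FPKM + 1) scale (SE 0.033, adjusted p = 0.000278), a mean 24.3% higher. KEAP1, the adaptor that targets NRF2 for destruction (ENSG00000079999, chromosome 19, 10486120 to 10503741, minus strand), had 15.5, 17.7 and 16.4 FPKM in lactate libraries, against 21.1, 21.5 and 21.4 FPKM in untreated ones. The lactate libraries were all lower and more spread out than the untreated ones, with replicate 1 the lowest. KEAP1 fell by 0.35 (SE 0.044, adjusted p = 0.000414).

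BACH1, the repressor that competes with NRF2, had 6.19, 5.76 and 6.003 FPKM in lactate libraries and 5.07, 4.96 and 4.85 FPKM in untreated ones. It rose by 0.23 (SE 0.035, adjusted p = 0.00114), with no overlap of the groups. MAFG, the small MAF partner, had 13.1, 12.2 and 12.3 FPKM in lactate libraries and 13.8, 14.7 and 14.2 FPKM in untreated ones. MAFG fell by 0.17 (SE 0.036, adjusted p = 0.00499), and its highest lactate library was below its lowest untreated one. After the GC and length correction, the values of BACH1 (0.051, adjusted p = 0.205) and MAFG (-0.087, adjusted p = 0.0987) no longer passed. The calls of NFE2L2 and KEAP1 held under all 16 alternatives tried. Exons of NFE2L2 overlap those of an annotated transcript on the same strand by 1054 nt, 17.6% of the gene, and that transcript stood at 0.102 FPKM in lactate and 0.0555 FPKM in untreated cells. How reads lying in both were counted is not known.

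Of 8 other regulators listed, 7 were tested, and 2 rose and 5 fell. CUL3, the ligase scaffold that acts with KEAP1, averaged 4.72 ± 0.315 FPKM in lactate and 3.19 ± 0.203 FPKM in untreated cells (0.45 on the log2(FPKM + 1) scale, SE 0.054, adjusted p = 0.000371). In mean FPKM CUL3 was 47.7% higher. SQSTM1, the autophagy receptor p62 that can bind KEAP1 and is itself an NRF2 target, had 97.0, 103 and 99.98 FPKM in lactate libraries and 138, 144 and 142 FPKM in untreated ones. SQSTM1 fell by 0.49 (SE 0.028, adjusted p = 1.8e-05). The CUL3 value was 0.25 after the GC and length correction (adjusted p = 0.00348).

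The letters of the antioxidant response element core were looked for in the promoters, from 250 bases before to 50 after a RefSeq start (GRCh38.p14), as TGACNNNGC on either strand, so that GCNNNGTCA is the same core read on the other strand. Promoters were matched for 31 of the 41 genes, with 45 windows because some genes have several starts. The core stood in 8 of the 45 windows (17.8%), against 14.7% of the 11922 windows of tested genes with a symbol and 13.3% of all 35116 windows. Those 8 windows belong to KEAP1, GCLM, GPX2, GSTP1, TXNRD1, PGD and MGST1. A match is a run of letters and not evidence of binding, and many response elements lie outside such windows. The matches before the start are shown for the genes above the filter because NRF2 binding sites are defined by these letters. Each runs 5′ to 3′ along the gene's strand with the core in capitals.
KEAP1 (chr19:10502807-10502835, minus strand, core at -54 to -46 from the start): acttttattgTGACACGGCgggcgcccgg
KEAP1 (chr19:10502784-10502812, minus strand, core at -31 to -23): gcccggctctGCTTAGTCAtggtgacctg
GCLM (chr1:93909446-93909474, minus strand, core at -34 to -26): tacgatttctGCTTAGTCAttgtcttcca
GPX2 (chr14:64942849-64942877, minus strand, core at -122 to -114): acctgtttttGCTAAGTCAtcctggggat
GSTP1 (chr11:67583736-67583764, plus strand, core at -66 to -58): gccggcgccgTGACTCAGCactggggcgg
TXNRD1 (chr12:104215670-104215698, plus strand, core at -99 to -91): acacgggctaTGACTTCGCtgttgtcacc
TXNRD1 (chr12:104286920-104286948, plus strand, core at -102 to -94 from another start): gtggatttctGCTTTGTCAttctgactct
PGD (chr1:10398853-10398881, plus strand, core at -201 to -193): cctcgccgggGCAATGTCAtctaggtgct
The second KEAP1 core and the GCLM core have the same letters. The GSTP1 core also holds TGACTCA, the letters of the AP-1 site, and no other motif was searched. Of the 6 genes shown, TXNRD1 rose, KEAP1, GSTP1 and PGD fell, and GCLM and GPX2 did not pass the test.

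NQO1 and OSGIN1, often used as readouts of NRF2 activity, were both lower in lactate. NQO1, which reduces quinones, had 76.3, 74.2 and 77.2 FPKM in lactate libraries and 89.1, 87.4 and 91.2 FPKM in untreated ones. The lowest untreated library was above the highest lactate one, and NQO1 fell by 0.23 (SE 0.024, adjusted p = 0.000184). OSGIN1, an oxidative stress induced growth inhibitor, had 3.87, 4.08 and 4.03 FPKM in lactate libraries and 4.96, 5.36 and 5.02 FPKM in untreated ones. It fell by 0.29 (SE 0.038, adjusted p = 0.000525), again without overlap. Quantile normalization brought the NQO1 value to -0.096 (adjusted p = 0.0147). Exons of NQO1 overlap those of an annotated antisense gene by 575 nt, 17.7% of the gene, and whether the counting used strand is not given in the sources used here. Of 5 related genes listed, 2 fell, the epoxide hydrolase EPHX1 (-0.10) and the ubiquitin ligase TRIM16 (-0.19), and 3 did not pass. EPHX1 was not called without lactate replicate 1 or 3 or untreated replicate 1 or 3 (adjusted p = 0.0638 to 0.0899), or with no filter (0.0887). It stood at -0.037 with read totals (adjusted p = 0.382) and at 0.043 after the GC and length correction (adjusted p = 0.288).

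Glutathione genes did not move together. Of the 10 listed, 9 were tested, 2 rose, 3 fell and 4 did not pass, with a median of 0.027. GPX1, the cytosolic glutathione peroxidase, had 137, 141 and 138 FPKM in lactate libraries and 166, 173 and 172 FPKM in untreated ones. The groups were far apart for their spread, and GPX1 fell by 0.30 (SE 0.022, adjusted p = 4.68e-05). GSTP1, the most abundant glutathione S-transferase here, averaged 1054 ± 15.6 FPKM in lactate and 1205 ± 16.6 FPKM in untreated cells (log2 fold change -0.19), and GSS, glutathione synthetase, averaged 16.0 ± 0.502 and 17.6 ± 0.269 FPKM in those groups (-0.13). The risen genes were GSTM3, another transferase, with 9.61 ± 0.407 FPKM in lactate and 8.25 ± 0.117 FPKM in untreated cells (0.20, adjusted p = 0.00224), and GPX4, which reduces lipid peroxides, with 50.5 ± 0.541 and 48.5 ± 0.704 FPKM in those groups (0.058, adjusted p = 0.0432).

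GCLC, the catalytic subunit of glutamate-cysteine ligase, averaged 6.74 ± 0.284 FPKM in lactate and 6.56 ± 0.226 FPKM in untreated cells (0.034, SE 0.039, adjusted p = 0.482). Its modifier subunit GCLM averaged 13.3 ± 0.396 FPKM in lactate and 13.0 ± 0.211 FPKM in untreated cells (0.027, SE 0.030, adjusted p = 0.457). Their groups overlapped, as did those of GSR, glutathione reductase (-0.034, adjusted p = 0.351), and GPX2, the epithelial peroxidase (0.12, adjusted p = 0.0702). MGST1, a microsomal transferase, stayed between 0.019 and 0.0727 FPKM in all libraries. The call of GPX4 was lost when any library but untreated replicate 2 was left out (adjusted p = 0.0517 to 0.124), and with no filter, median centring, voom or no variance trend (adjusted p = 0.0826 to 0.171), and that of GSTP1 after quantile normalization (-0.013, adjusted p = 0.585). GSS was not called after quantile normalization, with read totals or after the GC and length correction (adjusted p = 0.0552 to 0.152). GCLM (0.094, adjusted p = 0.0415) and GPX2 (0.18, adjusted p = 0.02) passed as higher with read totals. After the GC and length correction GCLM was lower (-0.13, adjusted p = 0.0208) and GPX2 higher (0.29, adjusted p = 0.00226). GPX2 also passed at the filter of 5 FPKM (adjusted p = 0.0473) and without lactate replicate 1 (0.16, adjusted p = 0.0244).

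Of 22 other glutathione genes listed, 18 were tested, and 4 rose and 11 fell. CHAC1, which degrades glutathione, averaged 18.6 ± 0.968 FPKM in lactate and 28.3 ± 0.618 FPKM in untreated cells and fell by 0.58 (SE 0.039, adjusted p = 3.38e-05). SLC3A2, the heavy chain of the cystine and glutamate exchanger, averaged 153 ± 3.80 FPKM in lactate and 199 ± 2.05 FPKM in untreated cells and fell by 0.38 (SE 0.022, adjusted p = 1.82e-05). SLC7A11, its partner in that exchanger, was far scarcer, with 7.53 ± 0.239 FPKM in lactate and 8.70 ± 0.171 FPKM in untreated cells. SLC7A11 fell by 0.19 (SE 0.033, adjusted p = 0.00203). After quantile normalization SLC3A2 stood at -0.21 (adjusted p = 0.0002).

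In the thioredoxin system the reductase TXNRD1 rose, and thioredoxin, sulfiredoxin and 5 of 6 peroxiredoxins fell. Of 9 genes, all tested, 1 rose, 7 fell and 1 did not pass, with a median of -0.16. Of all genes tested 27.7% rose and 30.9% fell, and of the 501 genes of at least 100 FPKM 390 fell. TXNRD1, the cytosolic selenoenzyme that reduces thioredoxin with NADPH (ENSG00000198431, chromosome 12, 104215779 to 104350305, plus strand), had 112, 113 and 112 FPKM in lactate libraries and 94.2, 91.9 and 93.9 FPKM in untreated ones. The lactate libraries were nearly equal to one another and all above the untreated ones. TXNRD1 rose by 0.26 (SE 0.018, adjusted p = 3.29e-05), a mean 20.3% higher, and by 0.40 after quantile normalization.

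SRXN1, sulfiredoxin, which restores overoxidized peroxiredoxins, had 6.79, 8.73 and 7.96 FPKM in lactate libraries and 9.02, 9.62 and 9.49 FPKM in untreated ones. The groups did not overlap, but the lactate libraries were widely spread and replicate 1 was low. SRXN1 fell by 0.24 (SE 0.078, adjusted p = 0.0347). Without lactate replicate 1 the value was -0.15 (adjusted p = 0.0369). The call was lost without lactate replicate 3 or any untreated library (adjusted p = 0.0540 to 0.0986), with no filter (0.115), with read totals (0.114) and after the GC and length correction (0.335). Its annotated exons share 85.0% of their length with another protein-coding gene annotated on the same strand, which stood at 0.0283 FPKM in lactate and 0.0301 FPKM in untreated cells.

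PRDX2, a cytosolic peroxiredoxin, had 21.6, 21.6 and 20.0 FPKM in lactate libraries and 24.4, 25.6 and 23.9 FPKM in untreated ones. All lactate libraries were lower, and PRDX2 fell by 0.22 (SE 0.039, adjusted p = 0.00227). Thioredoxin itself, TXN, averaged 880 ± 8.42 FPKM in lactate and 967 ± 13.98 FPKM in untreated cells (log2 fold change -0.14, adjusted p = 0.000323). PRDX1 (-0.16), the endoplasmic reticulum enzyme PRDX4 (-0.20), PRDX5 (-0.081) and PRDX6 (-0.19) fell too, and the mitochondrial PRDX3 did not pass (-0.066, adjusted p = 0.0756). After quantile normalization TXN (0.027, adjusted p = 0.349), PRDX1 (0.024, adjusted p = 0.336), PRDX4 (-0.069, adjusted p = 0.0718) and PRDX6 (-0.016, adjusted p = 0.651) were not called, and PRDX3 (0.082, adjusted p = 0.0301) and PRDX5 (0.076, adjusted p = 0.0149) were called higher. After the GC and length correction, PRDX1, PRDX2 and PRDX4 were not called (adjusted p = 0.218 to 0.871), PRDX5 was higher (0.096, adjusted p = 0.00273), and PRDX3 was lower (-0.12, adjusted p = 0.00245). PRDX3 was also called lower with median centring (adjusted p = 0.0292), with voom (0.00935) and without untreated replicate 2 (0.0255).

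Of 10 other thioredoxin genes listed, 2 rose, 5 fell and 3 did not pass. TXNIP, an arrestin-domain protein that binds thioredoxin, averaged 189 ± 2.04 FPKM in lactate and 122 ± 0.992 FPKM in untreated cells (0.62, SE 0.017). SESN2, a stress-induced sestrin, averaged 16.2 ± 0.144 FPKM in lactate and 24.4 ± 0.943 FPKM in untreated cells and fell by 0.56 (SE 0.031, adjusted p = 1.82e-05). Another sestrin, SESN3, went the other way, with 1.98 ± 0.0709 FPKM in lactate and 1.07 ± 0.0386 FPKM in untreated cells. SESN3 rose by 0.52 (SE 0.044, adjusted p = 7.69e-05). The log2(FPKM + 1) scale understates changes of low genes. In mean FPKM SESN3 was 84.6% higher, TXNIP was 54.5% higher and SESN2 differed by -33.4%.

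**Figure D2:**
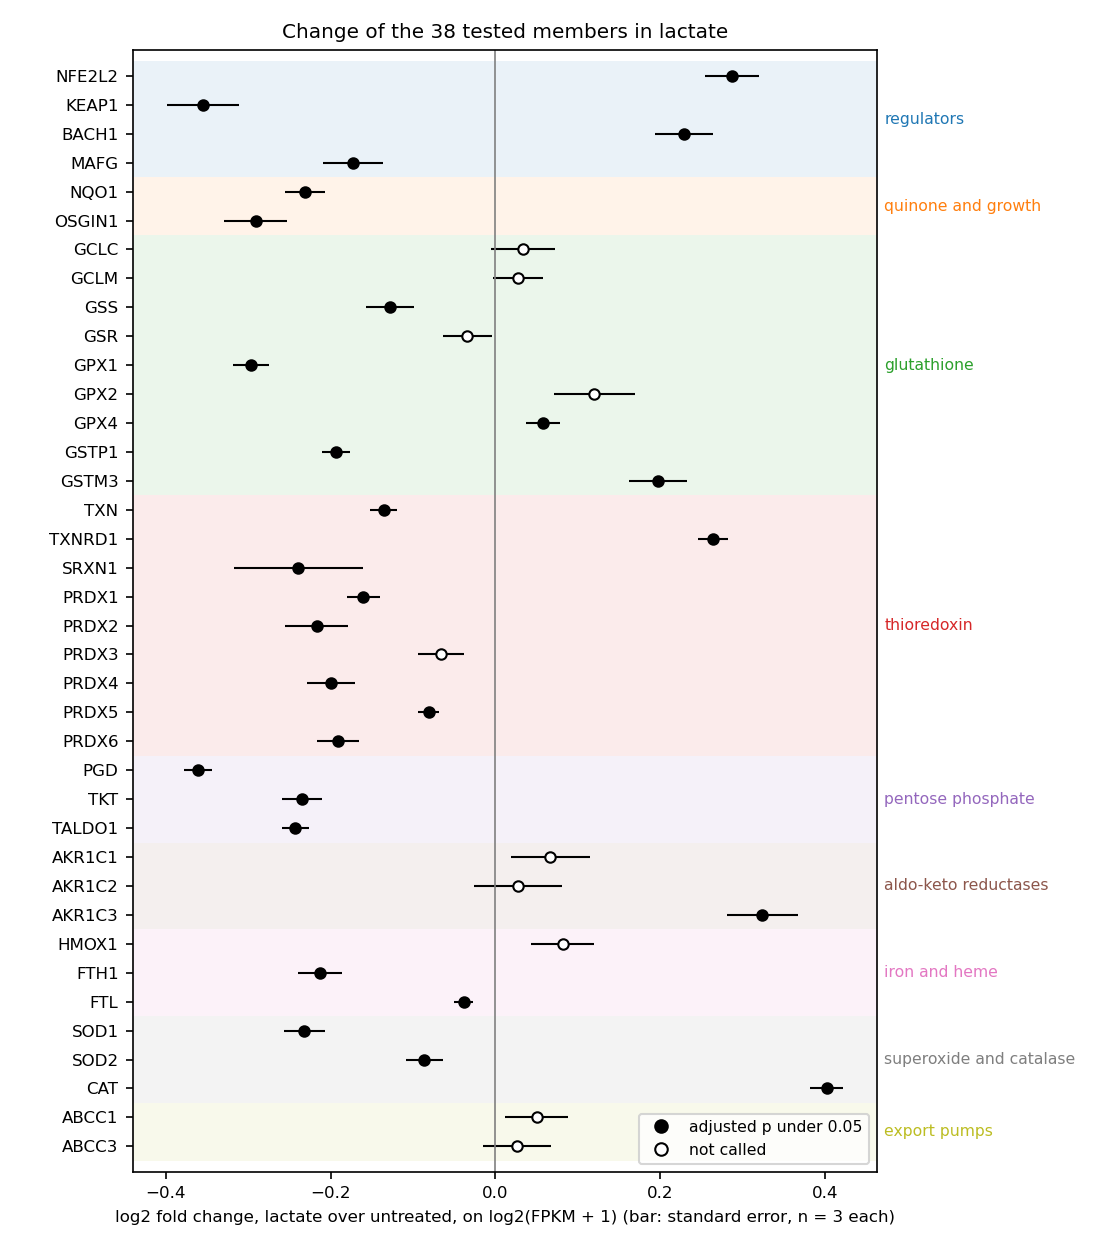
Log2 fold change of the 38 tested genes, lactate over untreated, with standard errors (log2 of FPKM + 1), where filled points passed an adjusted p under 0.05. CAT at 0.40 and AKR1C3 at 0.32 lie farthest to the right, and PGD at -0.36 and KEAP1 at -0.35 farthest to the left.

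The 3 pentose phosphate genes among the 41 all fell. PGD, which makes NADPH in the oxidative branch (ENSG00000142657, chromosome 1, 10398592 to 10420144, plus strand), had 81.7, 81.2 and 80.1 FPKM in lactate libraries and 105, 104 and 104 FPKM in untreated ones. The gap between groups was many times the spread within either, and PGD fell by 0.36 (SE 0.017, adjusted p = 1.23e-05), a mean difference of -22.3%. TALDO1, transaldolase of the non-oxidative branch, had 119, 120 and 122 FPKM in lactate libraries and 142, 142 and 142 FPKM in untreated ones, and fell by 0.24 (SE 0.016, adjusted p = 3.28e-05). TKT, transketolase, had 29.2, 29.6 and 29.9 FPKM in lactate libraries and 34.3, 35.9 and 34.7 FPKM in untreated ones, and fell by 0.23 (SE 0.025, adjusted p = 0.000199). No gene of the class overlapped between groups, and nor did 65.5% of all genes tested. Of all genes tested 30.9% fell, and of the 501 genes of at least 100 FPKM 390 fell. The summed level of the 3 pentose phosphate genes was 231 ± 0.866 FPKM in lactate and 281 ± 0.926 FPKM in untreated cells. After quantile normalization the values were -0.23 for PGD, -0.15 for TKT and -0.043 for TALDO1, which was then not called (adjusted p = 0.0591).

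Of 9 other genes of the pathway and of NADPH supply, 8 were tested, and 3 rose and 3 fell. RPE, an epimerase of the non-oxidative branch, rose, as did the NADPH suppliers ME1 and IDH2. RPE averaged 28.4 ± 0.638 FPKM in lactate and 25.1 ± 0.812 FPKM in untreated cells (0.17, SE 0.0305, adjusted p = 0.00215). RPE and IDH2 were named after their values were seen. ME1, cytosolic malic enzyme and a known NRF2 target, averaged 18.9 ± 0.642 FPKM in lactate and 15.1 ± 0.721 FPKM in untreated cells (0.30, SE 0.040, adjusted p = 0.000538). RPIA, ribose-5-phosphate isomerase, averaged 18.7 ± 0.561 FPKM in lactate and 21.4 ± 0.913 FPKM in untreated cells and fell by 0.19 (SE 0.037, adjusted p = 0.00357). After the GC and length correction, ME1 stood at 0.20 (adjusted p = 0.00327) and RPIA at -0.071 (adjusted p = 0.132).

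The aldo-keto reductases, which reduce carbonyls and steroids and are among the most inducible human NRF2 targets, were scarce in these cells. AKR1C3 had 2.68, 2.57 and 2.45 FPKM in lactate libraries and 1.93, 1.79 and 1.84 FPKM in untreated ones, on 325, 331 and 385 reads in lactate and 213, 176 and 239 reads in untreated libraries. All lactate libraries were higher, and AKR1C3 rose by 0.32 (SE 0.043, adjusted p = 0.000551). The ratio of its mean FPKM was 1.39, the largest ratio above 1 among the tested genes of the list. AKR1C1 averaged 1.58 ± 0.0519 FPKM in lactate and 1.46 ± 0.0936 FPKM in untreated cells (0.067, adjusted p = 0.263), and AKR1C2 averaged 1.12 ± 0.0685 and 1.08 ± 0.0668 FPKM in those groups (0.028, adjusted p = 0.677). AKR1B10 stayed at 0.491 to 0.638 FPKM in all libraries.

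These paralogs are alike enough to confuse short reads. In windows of 100 nt, 31.1% of the longest coding transcript of AKR1C2 also stood in transcripts of AKR1C1, and 17.2% of that of AKR1C1 in AKR1C2. Of AKR1C3, 4.98% of windows stood in another gene. How the authors' counting treated reads that match several genes is not given in the sources used here. Of 8 related reductases and dehydrogenases listed, 6 were tested, and 1 rose and 3 fell. AKR1A1 averaged 29.7 ± 0.776 FPKM in lactate and 34.0 ± 0.541 FPKM in untreated cells (-0.19, adjusted p = 0.00067), and AKR7A2 averaged 43.7 ± 1.65 and 49.4 ± 1.05 FPKM in those groups (-0.17, adjusted p = 0.00238). The call of AKR7A2 was lost after quantile normalization (adjusted p = 0.193) and after the GC and length correction (adjusted p = 0.436).

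Of the iron and heme genes, ferritin heavy chain fell. FTH1, the subunit with ferroxidase activity, had 701, 751 and 721 FPKM in lactate libraries and 827, 855 and 839 FPKM in untreated ones. The groups did not overlap, and FTH1 fell by 0.21 (SE 0.026, adjusted p = 0.000414). FTL, the light chain, averaged 3095 ± 19.8 FPKM in lactate and 3177 ± 10.1 FPKM in untreated cells (-0.038, SE 0.012, adjusted p = 0.0239). HMOX1, which breaks down heme and is a sensitive target of BACH1, had 9.33, 9.35 and 9.21 FPKM in lactate libraries and 8.22, 8.91 and 9.08 FPKM in untreated ones. Its groups did not overlap, but untreated replicate 3 came close to the lactate libraries and the test did not pass (0.082, SE 0.038, adjusted p = 0.104).

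FTH1 was not called after quantile normalization (-0.033, adjusted p = 0.213) or after the GC and length correction (-0.079, adjusted p = 0.0660). FTL stood at 0.15 after that correction (adjusted p = 3.39e-05), and its call was lost without lactate replicate 1 or 3 or any untreated library (0.0508 to 0.0906) and with no variance trend (0.206). It stood at 0.037 after quantile normalization (adjusted p = 0.502) and at 0.034 with read totals (0.0662). HMOX1 passed as higher with read totals (0.15, adjusted p = 0.0179) and after the correction (0.23, adjusted p = 0.00177). Ferritin heavy chain has many processed copies, and the 15 FTH1 pseudogenes in the table summed to 204 FPKM in lactate and 240 FPKM in untreated cells, 28.1% and 28.6% of the FTH1 level in those groups. Exons of FTH1 also overlap those of BEST1 on the opposite strand by 1267 nt, and BEST1 stood at 0.193 FPKM in lactate and 0.279 FPKM in untreated cells. Here too the counting of reads lying in both genes is not known.

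Of 13 other iron and heme genes listed, 12 were tested, and 2 rose, 4 fell and 6 did not pass. IREB2, an iron regulatory protein that controls ferritin translation, averaged 3.99 ± 0.210 FPKM in lactate and 3.28 ± 0.145 FPKM in untreated cells (0.22, SE 0.045, adjusted p = 0.00403). PCBP1, an iron chaperone for ferritin, averaged 7.87 ± 0.330 FPKM in lactate and 9.29 ± 0.536 FPKM in untreated cells (-0.21, SE 0.046, adjusted p = 0.0055). Neither passed after the GC and length correction (adjusted p = 0.618 and 0.421).

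Catalase rose more than any other of the 41 genes on the log2(FPKM + 1) scale. CAT, the peroxisomal enzyme that splits hydrogen peroxide (ENSG00000121691, chromosome 11, 34438925 to 34472062, plus strand), had 67.1, 67.0 and 66.7 FPKM in lactate libraries and 51.2, 49.5 and 50.5 FPKM in untreated ones. The lactate libraries differed by less than 1 FPKM and all lay far above the untreated ones. The difference was 0.40 (SE 0.020, adjusted p = 1.27e-05), a mean 32.8% higher, and it passed under all 16 alternatives with 0.54 after quantile normalization. SOD1, the cytosolic superoxide dismutase, had 214, 207 and 215 FPKM in lactate libraries and 256, 242 and 248 FPKM in untreated ones. SOD1 fell by 0.23 (SE 0.025, adjusted p = 0.000234), without overlap. SOD2, the mitochondrial enzyme, averaged 35.2 ± 0.407 FPKM in lactate and 37.4 ± 0.641 FPKM in untreated cells (-0.086, adjusted p = 0.0123). CCS, the copper chaperone of SOD1, changed by -0.11 (adjusted p = 0.0132).

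After quantile normalization SOD1 (-0.047, adjusted p = 0.205), SOD2 (0.0055, adjusted p = 0.851) and CCS (-0.046, adjusted p = 0.209) were not called. SOD2 was also lost with read totals (-0.016, adjusted p = 0.545), and after the GC and length correction it stood at -0.27 (adjusted p = 3.66e-05).

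The export pumps, which carry glutathione conjugates out of the cell, did not pass. ABCC1 had 9.23, 8.52 and 8.42 FPKM in lactate libraries and 8.29, 8.33 and 8.53 FPKM in untreated ones. The groups overlapped (0.050, SE 0.038, adjusted p = 0.290), though ABCC1 passed with read totals (0.11, adjusted p = 0.0299). ABCC3 averaged 3.05 ± 0.0504 FPKM in lactate and 2.97 ± 0.166 FPKM in untreated cells (0.026, SE 0.042, adjusted p = 0.614), and ABCC2 lay between 0.198 and 0.295 FPKM. Among 5 other pumps listed, 3 were tested and 1 rose, ABCC4, with 3.10 ± 0.109 FPKM in lactate and 2.57 ± 0.0760 FPKM in untreated cells (0.20, adjusted p = 0.00305), a call lost after the GC and length correction (0.079, adjusted p = 0.128).

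Over all classes, 70 of the 82 other pathway genes listed were tested, and 15 rose and 34 fell, with a median of -0.063. These counts stand beside the 27.7% risen and 30.9% fallen of all genes tested.

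**Figure D3:**
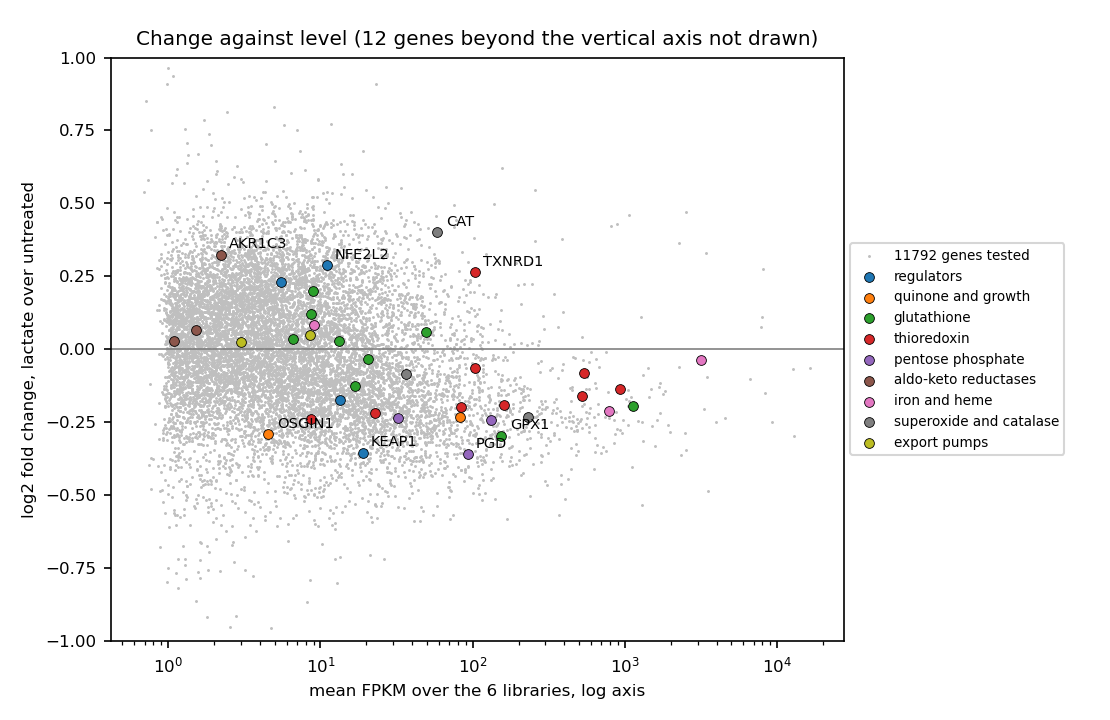
Log2 fold change, lactate over untreated, against mean FPKM over the 6 libraries on a log axis. The 11792 genes tested are in grey, except those beyond the vertical axis, which are not drawn. The 38 tested members are in colour by class. CAT at 58.7 FPKM and TXNRD1 at 103 FPKM lie above 0, and at 100 FPKM and more most grey and coloured points lie under 0.

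Of the 28 called genes, 11 kept both direction and call in every alternative in which they were tested. The same count was not made over the 6914 genes called in all, so it cannot be read as particular to the members. The 5 that rose were NFE2L2, GSTM3, TXNRD1, AKR1C3 and CAT, and the 6 that fell were KEAP1, NQO1, OSGIN1, GPX1, PGD and TKT. AKR1C3 and OSGIN1 were tested in fewer alternatives than the others where the filter was raised to 5 FPKM. The other 17 calls were each lost or turned under at least 1 alternative. Some values shrank by over 1.5 times while still passing after the GC and length correction, as in GPX1 (-0.14), GSTP1 (-0.047), TALDO1 (-0.11), SOD1 (-0.072) and AKR1A1 (-0.062). GPX1 stood at -0.12 after quantile normalization, and GPX4 was larger there (0.18).

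**Figure D4:**
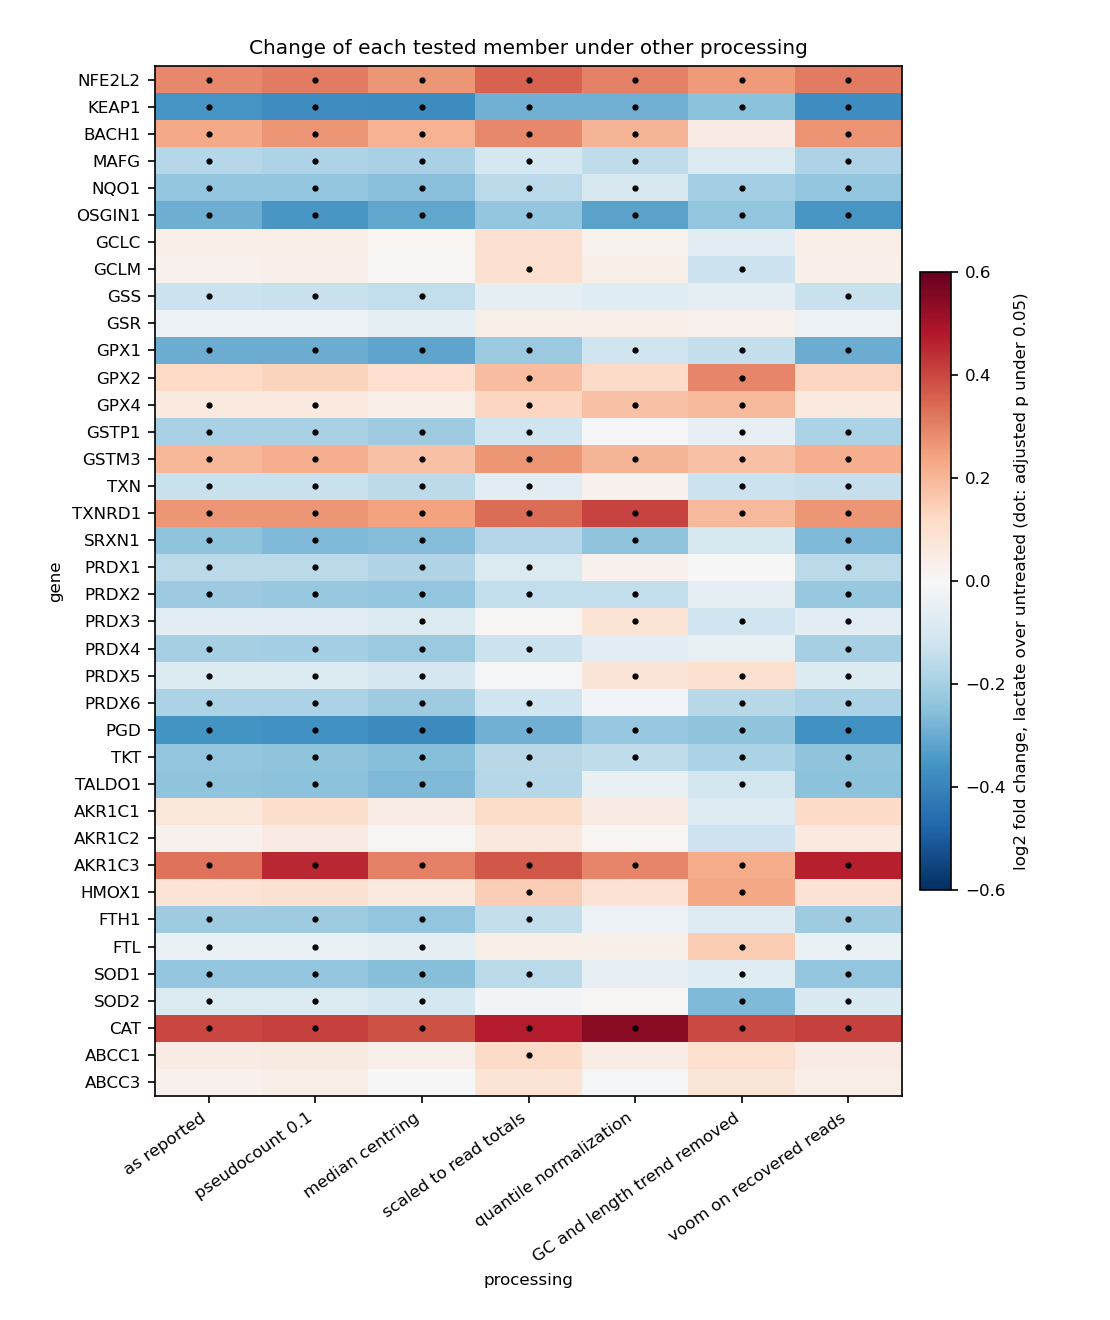
Log2 fold change of the 38 tested genes, lactate over untreated, as reported and under 6 other ways of processing, in colour with a dot for an adjusted p under 0.05. CAT, TXNRD1, NFE2L2, KEAP1 and PGD keep their colour and dot in every column, while FTL, PRDX5 and SOD2 change colour between columns.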

How the data were processed

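Poly-A RNA of 6 CAL27 libraries was profiled, and groups were taken from the treatment in the labels. The authors deposited FPKM per gene. The build hg38 and the programs featureCounts 1.5.0-p3, StringTie 1.3.3b, HISAT2 2.0.5 and fastp are named in the submitters' processing notes, without their roles. Not given in the sources used here were the annotation release, strand use and the treatment of multiply mapped reads and of reads lying in overlapping genes.

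From the deposited FPKM, whole reads were recovered for 31368 of 31368 genes (within 0.003 reads, or 1e-07 of the value), which gave the depths. A linear model with robust, trended variances (limma 3.58.1 under R 4.3.3) was fitted to log2(FPKM + 1), a scale that understates changes of low genes. It covered the 11792 genes of at least 1 FPKM in at least 3 libraries, with group as the only term. P-values were Benjamini-Hochberg adjusted over all of them (threshold 0.05), and every adjusted p in the text is limma's. SE is the moderated one, ± is the SD over 3 libraries. The fit was first run on simulated data in which few genes changed. Such data do not check the model under the broad change seen here.

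The members, the lists and the promoter motif were chosen with earlier results of these data known. All 41 members are named. Values per library are given for regulators and for called members with an absolute log2 fold change of at least 0.2, or the most abundant member of a class with none, and HMOX1 was added after its values were seen. Of the other pathway genes, the 2 per class with the largest called change are named, and SESN3, SLC7A11, RPE and IDH2 were added after their values were seen. Coordinates and exons are from GENCODE 29 (GRCh38) and promoters from RefSeq. The closing section gives the alternatives.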

Additional observations from a re-analysis of the deposited data

How the results depend on the processing

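The 16 alternatives were a pseudocount of 0.1, no filter, a filter at 5 FPKM, quantile normalization, median centring, read totals, the GC and length correction, voom on recovered reads, no variance trend, the replicate block and each of 6 libraries left out. Members called higher numbered 11 with read totals, and those called lower 9 after quantile normalization, against 7 and 21. Other pathway genes called higher numbered 24 with read totals, against 15. The members' median, -0.083, became -0.066 with no filter, -0.128 at 5 FPKM, 0.015 after quantile normalization, -0.105 with median centring, -0.0125 with read totals and -0.0605 after the GC and length correction, and -0.0944 to -0.0767 with a library left out.

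Values changed sign as follows. After quantile normalization they were 0.0336 (GSR), 0.0274 (TXN), 0.0243 (PRDX1), 0.0823 (PRDX3), 0.0759 (PRDX5), 0.0367 (FTL), 0.0055 (SOD2) and -0.0135 (ABCC3). With read totals they were 0.0344 (GSR), 0.0053 (PRDX3) and 0.0338 (FTL). After the GC and length correction they were -0.0624 (GCLC), -0.127 (GCLM), 0.0281 (GSR), 0.0959 (PRDX5), -0.0751 (AKR1C1), -0.126 (AKR1C2), 0.154 (FTL), 0.0426 (EPHX1) and 0.0241 (CCS). ABCC3 ranged from -0.00897 to 0.0468 with a library left out. The cause was not tested.

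With the replicate block, 8 members were higher and 22 lower, with GPX2 (adjusted p = 0.0468) and PRDX3 (0.00651) now called and EPHX1 of the other genes lost (0.0537). Deviations of same-numbered libraries correlated at 0.0526, 0.0668 and -0.00377. Lactate replicates 1 and 2 each correlated best with the untreated library of the same number, and lactate replicate 3 with untreated replicate 2 (0.00731). These values were all small, and the numbers were not taken to pair the libraries. Among the 38 tested members, AKR1C3 and AKR1C2 had the lowest read counts in any library (176 and 181).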
